A study of Mus musculus with 12 samples.

Results

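Loss of Lpin1 was compared with its presence in mouse liver across both feeding states at once, with 6 Lpin1-/- libraries set against 6 wild-type (WT, Lpin1+/+) libraries and feeding state held as a covariate. All 12 libraries of the series entered this comparison, and every gene of the table with a sufficient level was a member, 11507 of 22456 genes. The mice were male, 2 to 8 months old, on the BALB/cByJ background, and were either homozygous for the fatty liver dystrophy (fld) loss of Lpin1 or WT littermates. The 4 groups of 3 libraries were WT fasted and Lpin1-/- fasted, taken after 16 h without food, and WT refed and Lpin1-/- refed, taken after the same fast followed by 5 h with chow. Feeding state and hour of collection changed together, the loss of Lpin1 is inherited and present in every tissue, and fld mice also lack normal adipose tissue, so changes that start in the liver and changes that reach it from other tissues cannot be told apart. The genotype difference is the mean of log2(RPKM + 1) in Lpin1-/- minus that in WT, where RPKM is the read count scaled to gene length and to the library total, and a negative value means a lower level in Lpin1-/- liver.

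Lipin 1 is a phosphatidate phosphatase. It turns phosphatidic acid into diacylglycerol, the step of glycerolipid synthesis that comes before triglyceride and the main membrane phospholipids. It also enters the nucleus, where it is known as a partner of the coactivator PGC-1alpha and the nuclear receptor PPARalpha, which together switch on genes of fatty acid oxidation in fasted liver. Lipin 2 and lipin 3 are related enzymes with the same phosphatase activity.

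Recovered whole reads gave 93.5 to 124.9 M reads per library, with a median of 734 to 1534 reads per tested gene. Albumin, the main secreted protein of hepatocytes, lay between 11800 and 45600 RPKM in every library, while the 5 adipocyte and 4 muscle markers all had a mean under 0.5 RPKM. A pair of libraries stood apart from the other 10. In the WT refed library 2 and the Lpin1-/- fasted library 1, the summed Kupffer cell markers were 930 and 1000 RPKM against 109 to 508 RPKM elsewhere, and Lcn2, an acute phase gene, was 6040 and 1030 RPKM against 31.6 to 161 RPKM elsewhere. Several counts are also given below with these libraries left out. Since liver was taken whole, fewer cells of a type and less RNA per cell cannot be told apart.

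Lpin1 itself separated the genotypes in every library. It lies on the minus strand of chromosome 12 at 16535669 to 16610966 (GRCm38). WT fasted livers had 22, 0.726 and 1.76 RPKM, and WT refed livers had 2.92, 0.784 and 2.76 RPKM. Lpin1-/- fasted livers had 0.0597, 0.0566 and 0.0368 RPKM, and Lpin1-/- refed livers had 0.00573, 0.0238 and 0.00962 RPKM. All 6 Lpin1-/- libraries were below all 6 WT libraries, and they held 2 to 17 Lpin1 reads each against 206 to 6629 in WT. The log2 difference was -1.87 ± 0.50 (SE, n = 6 per genotype; limma adjusted p = 0.022), and the exact 2-sided permutation test within feeding states gave p = 0.005, the smallest value its 400 arrangements allow. Without the filter on low levels the adjusted p was 0.051. The size depended on the WT fasted library 1, since the difference was -1.33 without it, and more so on the treatment of low levels. The difference was -4.275 with 0.1 in place of 1 added to RPKM, and -6.382 with limma voom on recovered reads. Lpin2 did not pass the test, with a log2 difference of 0.43 (95% interval -0.33 to 1.2), and neither did Lpin3, with -0.06 (95% interval -0.37 to 0.25).

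Of the 11507 genes tested, 2070 differed between the genotypes when averaged over feeding state (18%, limma adjusted p under 0.05). A higher level in Lpin1-/- liver was called for 661 genes (5.74%) and a lower level for 1409 genes (12.2%). These shares are the background for the counts of list members given below. The median difference over all tested genes was -0.108 on the log2 scale, so the split between directions depended on the scaling of the libraries: with libraries rescaled by their median ratio this median was -0.013, and 943 of 1923 called genes were higher, 49% against 31.9% before rescaling. The median size of a called difference was 0.788, 661 called genes differed by more than 1 (238 higher and 423 lower), and 96 by more than 2 (56 higher and 40 lower). Leaving out the WT fasted library 3 lowered the count of calls to 1311, and leaving out both libraries that stood apart gave 2024. Called genes were found at every level, from 11.5% of the 2515 genes with a mean between 0.5 and 2 RPKM to 23% of the 1677 genes with at least 50 RPKM.

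The genotypes had no overlapping libraries in fasted liver and again none in refed liver, in the same direction, for 1420 genes (12.3% of those tested), 443 of them higher and 977 lower in Lpin1-/-. In 218 genes they were separated in opposite directions. The fasted and the refed differences come from different mice; across all tested genes they had a Pearson correlation of 0.365 and a Spearman correlation of 0.282, and 59.7% of genes had the same sign. Genes are not independent replicates, and this correlation is a description. A test of the interaction asked of each gene whether the genotype difference itself changed with feeding. It called 147 genes (1.28%), of which 107 were not called in the average and 107 had opposite signs in the 2 states. Among the 2070 genes called in the average, 40 also had a called interaction, 1 had opposite signs in the 2 states, and 805 had a 95% interval of the interaction that lay wholly within 1 log2 unit of 0. The median half-width of that interval was 0.721. For the other called genes a change of the genotype difference by 1 log2 unit between the states was not excluded by the interval. The interaction count fell to 30 and 31 without the Lpin1-/- refed library 3 or 2, to 41 without the WT fasted library 3, to 50 and 80 without the Lpin1-/- fasted library 2 or 1, and to 66, 61 and 55 without the WT refed library 1, 2 or 3. Without both libraries that stood apart it was 52.

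**Figure D1:**
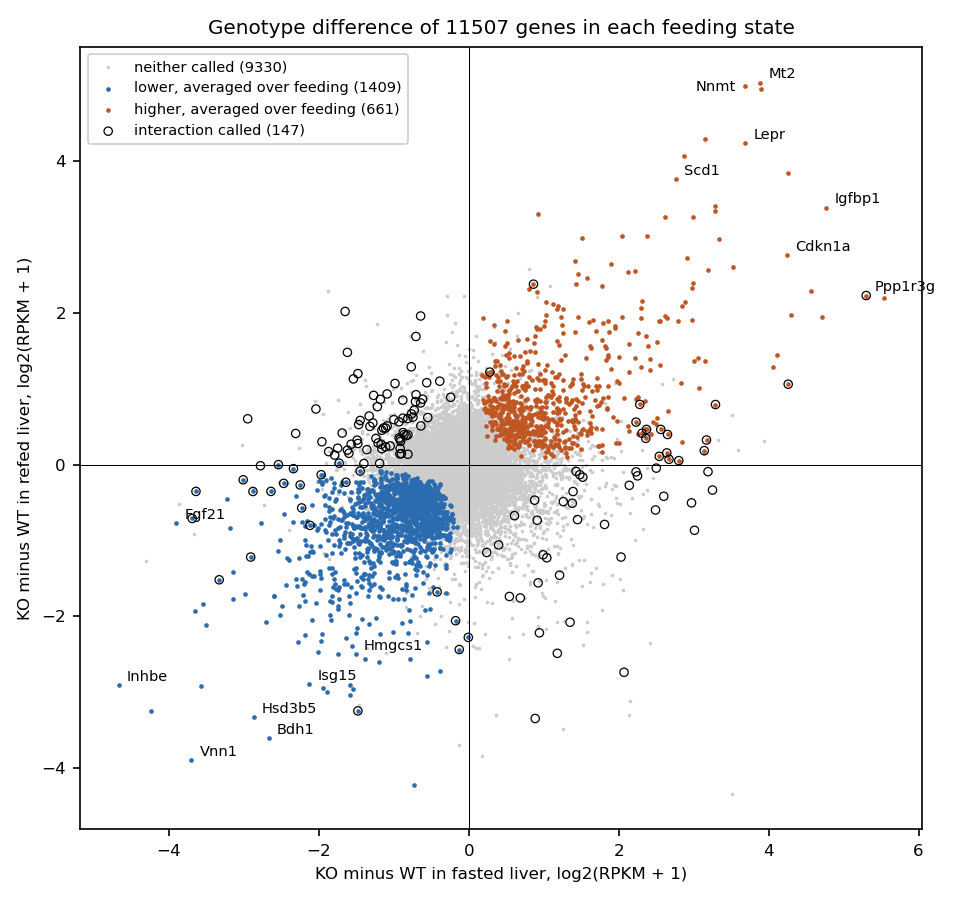
Each point is 1 of the 11507 tested genes, with its difference between Lpin1-/- and WT in fasted liver on the horizontal axis and in refed liver on the vertical axis, both in log2(RPKM + 1). Genes called lower (1409, blue) or higher (661, orange) in the average lie mainly in the lower left and upper right, and the 147 genes with a called interaction (open circles) include 107 whose differences had opposite signs.

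Among the 15 genes that fell most with no overlap in either feeding state, Vnn1 encodes the pantetheinase vanin 1. WT libraries held a lowest, median and highest level of 8.54, 27.1 and 45.3 RPKM and Lpin1-/- libraries 0.316, 0.716 and 1.19 RPKM, so the genotypes did not overlap across all 12 libraries (log2 difference -3.80 ± 0.37, SE; adjusted p = 7.83e-05). Its difference was -3.70 in fasted and -3.90 in refed liver. Inhbe, the activin E subunit that hepatocytes secrete, fell by 3.79 ± 0.49 on the log2 scale (adjusted p = 0.00045): its levels ran from 17.9 to 101 RPKM in WT and from 0.363 to 27.1 RPKM in Lpin1-/-, and all 3 Lpin1-/- refed libraries were above the 3 Lpin1-/- fasted libraries. Bdh1, the mitochondrial dehydrogenase that forms beta-hydroxybutyrate, lay between 130 and 300 RPKM in WT and between 11.9 and 43.5 RPKM in Lpin1-/- (-3.14 ± 0.28, adjusted p = 3.77e-05). Retsat, a retinol saturase, had medians of 560 RPKM in WT and 111 RPKM in Lpin1-/-, with a difference of -2.46, and Ddah1, which breaks down asymmetric dimethylarginine, had medians of 10.1 and 0.973 RPKM with a difference of -2.45.

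Apol7a (-3.25), Gm4952 (-3.74), Gm4951 (-2.79), Cyp2d37-ps (-2.81), Nrep (-2.36) and a gene model known only by its clone name (-2.43) were also members of this group. The rest of the group is described below. The group was chosen for no overlap within either feeding state. Across both states, each of these 6 genes was also lower in every Lpin1-/- library than in every WT library. The pseudogene Cyp2d37-ps resembles other Cyp2d genes, and its level depends on how reads that match several of them were counted. These 6 genes and the 5 described before them kept their calls in each of the 17 alternatives tried.

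Among the 15 genes that rose most with no overlap in either feeding state, the metallothioneins Mt1 and Mt2 came first on the log2(RPKM + 1) scale. They are described with their promoters below. With a pseudocount of 0.1, which weighs low levels more, Lepr (5.51), Fam107a (5.55) and Ppp1r3g (5.21) were ahead of Mt1 (4.44) and Mt2 (4.48). Nnmt, the nicotinamide N-methyltransferase, had 5.03, 48.2 and 104 RPKM as its lowest, median and highest WT level and 618, 726 and 855 RPKM in Lpin1-/-, a difference of 4.34 ± 0.54 (adjusted p = 0.000356). The spread of Nnmt was wide in WT and narrow in Lpin1-/- liver. Lepr, the leptin receptor gene, lay between 0.102 and 1.02 RPKM in WT and between 5.68 and 32.7 RPKM in Lpin1-/- (3.97 ± 0.34, adjusted p = 3.77e-05). Fam107a, a stress-responsive actin-associated gene, had medians of 0.338 and 26.0 RPKM and a difference of 4.05. Cyp2b10, the cytochrome P450 known as a target of the xenobiotic receptor CAR, lay between 5.37 and 99.7 RPKM in WT and between 112 and 806 RPKM in Lpin1-/- (3.73 ± 0.54, adjusted p = 0.000834). Etnppl, which breaks down phosphoethanolamine, had medians of 36 and 324 RPKM (3.35 ± 0.29, adjusted p = 3.77e-05). Fam134b, a receptor for autophagy of the endoplasmic reticulum, had medians of 19.9 and 258 RPKM (3.31 ± 0.31, adjusted p = 5.49e-05). These genes were chosen for having no overlap within either feeding state. In Nnmt, Lepr, Fam107a, Cyp2b10, Etnppl and Fam134b all 6 Lpin1-/- libraries were also above all 6 WT libraries across both states.

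**Figure D2:**
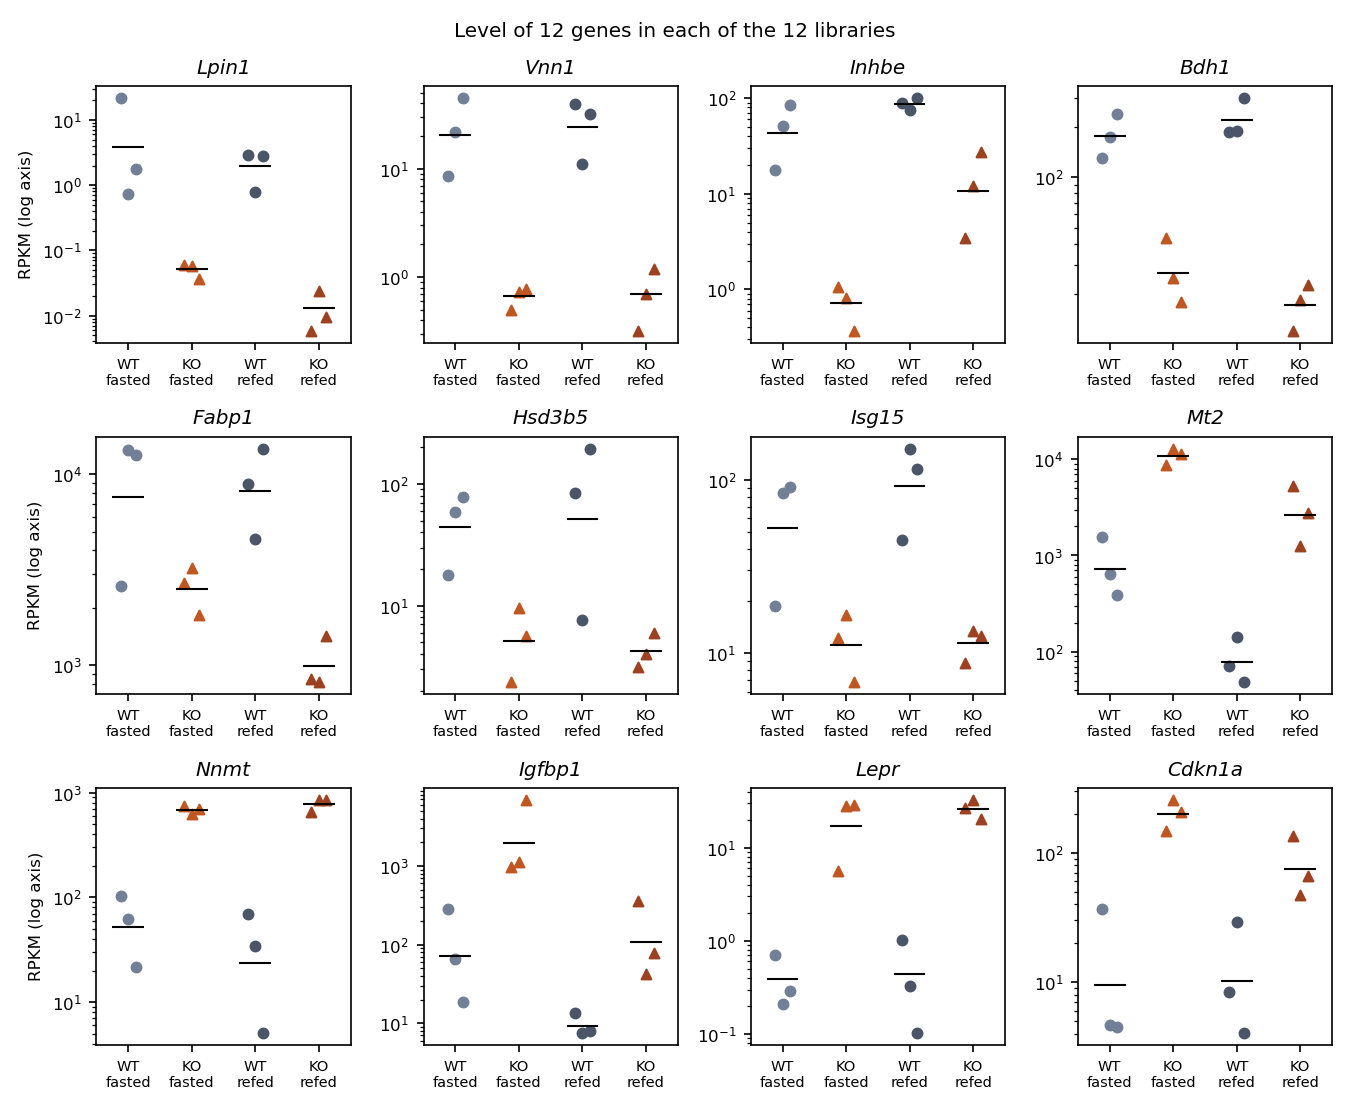
Levels of 12 genes in every library, in RPKM on a log axis, for the 4 groups of 3 libraries (circles WT, triangles Lpin1-/-; bars are group means taken on log2(RPKM + 1)). Lpin1, Vnn1, Bdh1 and Isg15 were lower in each Lpin1-/- library than in each WT library, Nnmt, Lepr and Cdkn1a were higher in each, and Inhbe, Fabp1, Hsd3b5, Mt2 and Igfbp1 overlapped when both feeding states were put together.

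In mitochondria, fatty acids are activated by acyl-CoA synthetase, carried in by the carnitine palmitoyltransferases and shortened by dehydrogenases, hydratases and thiolases. Of 20 mitochondrial members tested, 15 were lower in Lpin1-/-, none was higher, and 19 had a difference below 0; over all tested genes 12.2% were lower and 5.74% higher. Their median was -0.883, against -0.108 over all genes tested. By feeding state it was -1.17 in fasted and -0.535 in refed liver, and no member had a called interaction. Eci1, the enoyl-CoA isomerase, lay between 130 and 230 RPKM in WT and between 54.0 and 95.3 RPKM in Lpin1-/- (-1.31 ± 0.18, adjusted p = 0.000609), with -1.32 in fasted and -1.30 in refed liver. Hadh, the 3-hydroxyacyl-CoA dehydrogenase, had medians of 211 and 85.4 RPKM (-1.30 ± 0.17, adjusted p = 0.000483). Neither gene had overlapping genotypes. Acsl1 (-1.24), which activates long-chain fatty acids, and Acad11 (-1.14), an acyl-CoA dehydrogenase, were also called, but each lost its call when any 1 of several libraries was left out (8 libraries for Acsl1, 9 for Acad11, adjusted p up to 0.0753 and 0.0875). With libraries rescaled by the median ratio, 8 of the 20 members were called lower and the median was -0.763.

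Peroxisomal oxidation, which shortens very long and branched chains, showed the same direction: 11 of 16 members tested were lower, none was higher, and all 16 were below 0, with a median of -1.07. The medians were -1.28 in fasted and -0.697 in refed liver, and no member had a called interaction. Ehhadh, the bifunctional enzyme, had 172, 204 and 373 RPKM as lowest, median and highest level in WT and 46.5, 55.4 and 74.2 RPKM in Lpin1-/- (-1.93 ± 0.19, adjusted p = 8.38e-05). Crot, the carnitine octanoyltransferase, had medians of 193 and 57.8 RPKM (-1.82). Acaa1b, a thiolase, had medians of 579 and 191 RPKM (-1.71), though its level depends on how reads that also match the near-identical Acaa1a were counted. Abcd2, a transporter of very long acyl chains, had medians of 2.87 and 0.592 RPKM (-1.27). All 4 genes were lower in every Lpin1-/- library than in every WT library. In ketogenesis, Acat1, the acetoacetyl-CoA thiolase, was lower together with Bdh1, at 288 to 582 RPKM in WT and 117 to 185 RPKM in Lpin1-/- without overlap (-1.64 ± 0.22, adjusted p = 0.000592).

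Other known PPARalpha targets did not all move one way. Of 19 tested, 5 were lower and 2 higher, against 12.2% and 5.74% of all tested genes, with a median of -0.461. Without both libraries that stood apart 9 were lower and 2 higher. Fabp1, the liver fatty acid binding protein, ran from 2590 to 13600 RPKM in WT and from 813 to 3240 RPKM in Lpin1-/- (-2.32 ± 0.46, adjusted p = 0.00511). The fasting hormone Fgf21 ran from 4.55 to 43.6 RPKM in WT and from 0.323 to 8.68 RPKM in Lpin1-/- (-2.34 ± 0.60, adjusted p = 0.0181), with a difference of -3.90 in fasted and -0.77 in refed liver. Vnn1 and Retsat, described above, belong to the same list. In the opposite direction, Pdk4, the kinase that shuts off pyruvate dehydrogenase, rose from a WT median of 1.40 RPKM to 5.67 RPKM (1.68 ± 0.37, adjusted p = 0.00877). Angptl4, a secreted inhibitor of lipoprotein lipase, had medians of 78.5 and 161 RPKM (1.21 ± 0.31, adjusted p = 0.0185). Cyp4a10 (-2.30, adjusted p = 0.118) and Cyp4a14 (-2.79, adjusted p = 0.0943), the omega-hydroxylases, had large differences that did not pass the test; they are named because of their known role, after their values were seen. Ppara itself had a difference of -0.70 (adjusted p = 0.112).

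Of 16 nuclear receptors and coactivators tested, 2 were higher and 3 lower, against 5.74% and 12.2% of all tested genes. Esrra, the estrogen-related receptor alpha, had medians of 19.1 RPKM in WT and 33.3 RPKM in Lpin1-/- (0.83 ± 0.18, adjusted p = 0.00805), and Pparg had 4.33 and 1.97 RPKM (-0.74 ± 0.14, adjusted p = 0.00449). Ppargc1a, the gene of PGC-1alpha, was called higher (1.09), but the call was lost when any 1 of 8 libraries was left out (adjusted p up to 0.106). Nr0b2 (-0.90) and Nr1h3 (-0.73), the small heterodimer partner and the oxysterol receptor LXRalpha, were called lower and lost the call when libraries were rescaled.

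**Figure D3:**
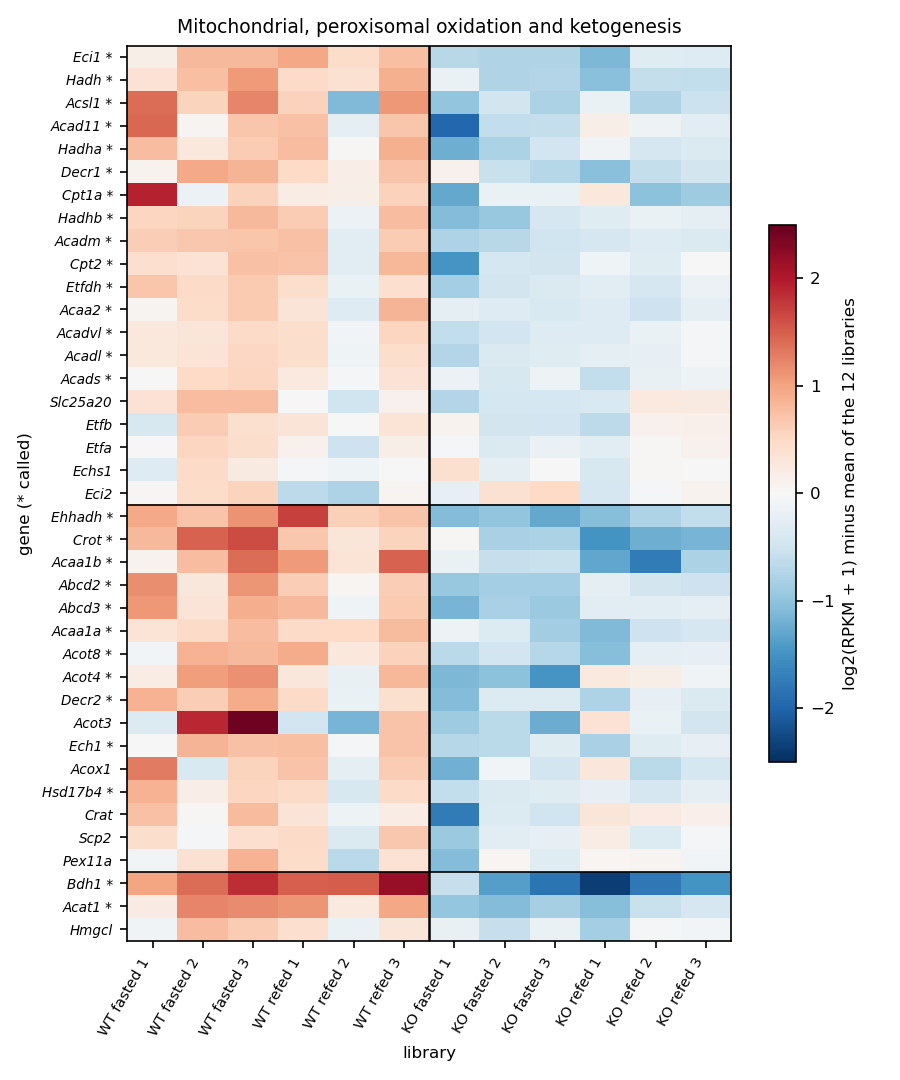
Each cell is log2(RPKM + 1) of a gene in 1 library minus the gene's mean over the 12 libraries, for 20 mitochondrial, 16 peroxisomal and 3 ketogenesis genes (blocks from top to bottom; stars mark called genes). The 6 WT libraries on the left are mostly above the mean and the 6 Lpin1-/- libraries on the right mostly below.

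Genes of lipid synthesis and storage moved in both directions. Of 15 de novo lipogenesis genes tested, 3 were higher and 4 lower, against 5.74% and 12.2% of all tested genes. Scd1, the desaturase that makes oleate, ran from 9.80 to 177 RPKM in WT and from 311 to 969 RPKM in Lpin1-/- without overlap (3.26 ± 0.54, adjusted p = 0.0019), with 2.76 in fasted and 3.77 in refed liver. Thrsp, the lipogenic Spot 14 gene, had medians of 48.0 and 423 RPKM (2.67 ± 0.56, adjusted p = 0.00648), with 4.06 in fasted and 1.29 in refed liver. Fads2, the delta-6 desaturase, had medians of 273 and 122 RPKM (-1.24), Acss2, an acetyl-CoA synthetase, 18.9 and 8.62 RPKM (-1.01), and Elovl5, an elongase of polyunsaturated chains, 229 and 124 RPKM (-0.87). The calls of Fasn (0.93), the fatty acid synthase, and Slc25a1 (-0.44), the citrate carrier, were lost when any 1 of 9 or 8 libraries was left out (adjusted p up to 0.0926 and 0.0831).

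In triglyceride synthesis 2 of 12 members were higher and 2 lower, against 5.74% and 12.2% of all tested genes. Of the 2 lower members 1 was Lpin1 itself. Gpat4, a glycerol-3-phosphate acyltransferase of the first step, lay between 51.2 and 90.8 RPKM in WT and between 174 and 313 RPKM in Lpin1-/- (1.74 ± 0.17, adjusted p = 9.79e-05). Dgat1, which performs the last step, lay between 15.4 and 19.8 RPKM in WT and between 22 and 29.9 RPKM in Lpin1-/- (0.48 ± 0.12, adjusted p = 0.0164). Both were higher in every Lpin1-/- library. Agpat3, an acyltransferase of the step before lipin, was lower (-0.73), a call lost without the WT fasted library 3 or the WT refed library 1 (adjusted p up to 0.057).

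Of 16 lipid droplet proteins and lipases, 4 rose and 4 fell, against 5.74% and 12.2% of all tested genes. Pnpla2, the adipose triglyceride lipase, had medians of 40.1 RPKM in WT and 181 RPKM in Lpin1-/- (2.18 ± 0.25, adjusted p = 0.000218). The droplet coat proteins Plin5 and Plin4 had medians of 50 and 147 RPKM (1.73) and of 1.07 and 8.03 RPKM (1.98). All 3 were higher in each Lpin1-/- library than in each WT library. Cidea, a droplet fusion protein usual in adipose tissue, lay at or under 0.286 RPKM in WT and between 0.553 and 5.45 RPKM in Lpin1-/- (1.02), a call lost without the WT fasted library 3 (adjusted p = 0.0517). The hepatocyte droplet protein Cideb had medians of 261 and 112 RPKM (-1.25 ± 0.15, adjusted p = 0.000225), and Hsd17b11 had 141 and 67.0 RPKM (-1.06). Plin2 (-1.18) and Fitm1 (-1.14) were called lower, and these calls were lost when any 1 of 5 or 9 libraries was left out (adjusted p up to 0.0755 and 0.0959). Rescaling gave 5 higher and 2 lower members.

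In phospholipid synthesis 2 of 16 were higher and 1 lower, close to the 18% called of all tested genes. Etnk2, an ethanolamine kinase, lay between 75.1 and 113 RPKM in WT and between 179 and 225 RPKM in Lpin1-/- (1.07 ± 0.13, adjusted p = 0.000334). Chka, a choline kinase, had medians of 9.62 and 17.3 RPKM (1.02), and Pisd, which makes phosphatidylethanolamine in mitochondria, 20.7 and 13.9 RPKM (-0.67). Etnk2 and Etnppl stand at opposite ends of phosphoethanolamine, which Etnk2 forms and Etnppl breaks down.

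Of 20 cholesterol synthesis genes tested, 6 were lower in the average and none higher (median -0.777), against 12.2% and 5.74% of all tested genes. A called interaction was found for 5 of the 20, a higher number than in any other list, against 1.28% of all tested genes. The medians of the list were 0.165 in fasted and -1.61 in refed liver. Among the 8 genes of sterol uptake and control 3 had a called interaction. Hmgcs1, the cytosolic HMG-CoA synthase, was lower in both states, -1.51 in fasted and -2.5 in refed liver, with 12.7 to 121 RPKM in WT and 5.96 to 14.9 RPKM in Lpin1-/- (-2 ± 0.26, adjusted p = 0.00045). Mvk, the mevalonate kinase, had medians of 14.3 and 3.10 RPKM (-1.45). Mvd (-1.15) and Fdft1 (-1.12), which act later in the pathway, were near 0 in fasted liver, and their averaged calls were lost when any 1 of 9 or 7 libraries was left out (adjusted p up to 0.11 and 0.0684). Of the same 8 genes, Insig2, which retains the sterol sensor in the endoplasmic reticulum, rose from a WT range of 146 to 540 RPKM to 555 to 2320 RPKM (1.59 ± 0.33, adjusted p = 0.00595). Srebf2 (-0.82) and Stard4 (-1) were called lower and lost the call when any 1 of 9 or 7 libraries was left out (adjusted p up to 0.0754 and 0.0656).

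Of 15 apolipoprotein and lipoprotein assembly genes, 3 were called lower, against 12.2% of all tested genes (Apof -0.73, Apob -0.75, Apoa4 -1.04), and none passed when libraries were rescaled. The calls of Apoa4 and Apob were lost when any 1 of 11 or 7 libraries was left out (adjusted p up to 0.104 and 0.0909), and 1 member was lower without both libraries that stood apart. In glucose metabolism, 1 of 8 gluconeogenic genes was called higher and none lower. Of 10 glycolysis genes 1 was higher and 2 lower, and of 8 glycogen genes 1 was higher and 1 lower. Over all tested genes 5.74% were higher and 12.2% lower. Of 8 gluconeogenic genes, Slc37a4, the glucose-6-phosphate transporter, was higher (0.96, a call lost without any 1 of 10 libraries, adjusted p up to 0.0913), while Pck1 had a difference of -0.605 (adjusted p = 0.459) and G6pc of 0.74 (adjusted p = 0.35). Of 10 glycolysis genes, Slc2a2, the glucose transporter GLUT2, had medians of 65.8 and 14.6 RPKM without overlap (-1.75 ± 0.28, adjusted p = 0.00146). Pfkfb1 (0.61) and Pfkl (-0.75) were called and lost their calls when any 1 of 8 or 4 libraries was left out (adjusted p up to 0.088 and 0.0607). Ppp1r3g, a glycogen-targeting subunit of protein phosphatase 1, lay between 0.196 and 0.895 RPKM in WT and between 3.34 and 149 RPKM in Lpin1-/- (3.76 ± 0.53, adjusted p = 0.000674), with differences of 5.30 in fasted and 2.23 in refed liver.

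The urea cycle turns ammonia into urea. Its 8 members had a median of 1.09, and 5 were higher and 2 lower, against 5.74% and 12.2% of all tested genes. In fasted liver the list median was 0.426 and in refed liver 1.6, and no member had a called interaction. Ass1, argininosuccinate synthase, lay between 548 and 2180 RPKM in WT and between 2240 and 3540 RPKM in Lpin1-/- (1.58 ± 0.28, adjusted p = 0.00261). Asl, the lyase that follows, had medians of 336 and 1190 RPKM (1.66), and Slc25a15, the mitochondrial ornithine carrier, 114 and 350 RPKM (1.59). These 3 were higher in every Lpin1-/- library. Arg1, arginase, had medians of 1400 and 3120 RPKM (1.2). Otc (-0.72), which makes citrulline and lost its call when libraries were rescaled, and Slc25a13 (-0.93), the aspartate-glutamate carrier, were lower.

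Of 32 genes of amino acid catabolism, 12 were higher and 1 lower, against 5.74% and 12.2% of all tested genes. The list medians were -0.104 in fasted and 0.954 in refed liver, and no member had a called interaction. Got1, the cytosolic aspartate aminotransferase, ran from 25.2 to 531 RPKM in WT and from 721 to 1670 RPKM in Lpin1-/- (3.47 ± 0.49, adjusted p = 0.000676). Cth, which makes cysteine from cystathionine, lay between 180 and 492 RPKM in WT and between 1520 and 2450 RPKM in Lpin1-/- (2.69 ± 0.20, adjusted p = 3.77e-05). Aass, of lysine breakdown, had medians of 88.5 and 520 RPKM (2.53), and the serine dehydratase genes Sdsl and Sds had medians of 29.7 and 153 RPKM (2.27) and of 166 and 689 RPKM (2.06). Each of these 5 genes was higher in all 6 Lpin1-/- libraries. Among the others that rose were Ahcy (1.97), Tat (1.65), Agxt (1.58), Tdo2 (1.11), Gnmt (0.95) and Hgd (0.63). Prodh2 was lower (-0.64), a call lost when libraries were rescaled and without the WT refed library 1 or 3 (adjusted p up to 0.053).

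**Figure D4:**
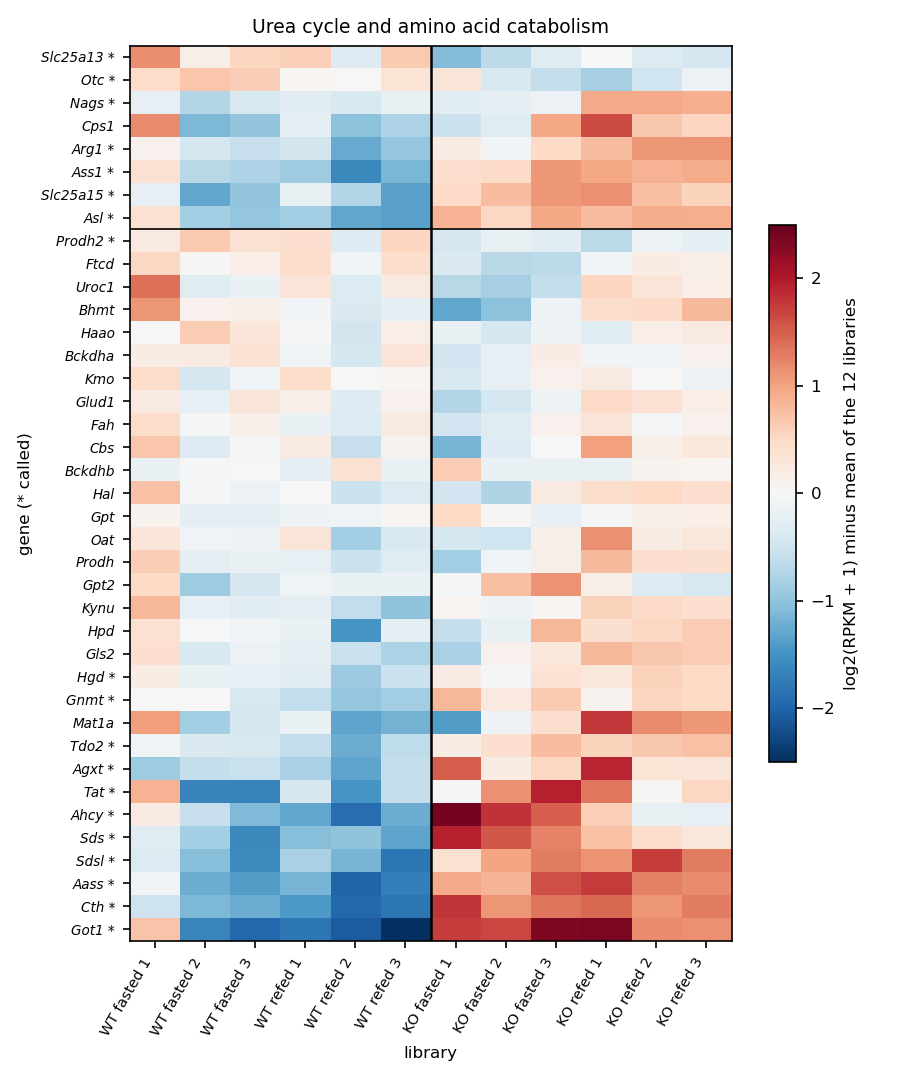
Each cell is log2(RPKM + 1) minus the gene's mean over the 12 libraries, for 8 urea cycle genes (upper block) and 31 amino acid catabolism genes (lower block), ordered by genotype difference, with stars on called genes. Got1, Cth, Aass, Sdsl and Sds at the bottom are above the mean in all 6 Lpin1-/- libraries on the right.

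Metallothioneins are small cysteine-rich proteins that bind zinc, copper and cadmium, and their genes answer to metals through the factor MTF1 and also to glucocorticoids. Mt1 held 115, 528 and 2300 RPKM as its lowest, median and highest WT level and 5040, 11300 and 20900 RPKM in Lpin1-/-, with no overlap (4.43 ± 0.39, adjusted p = 3.77e-05). Mt2 lay between 48.1 and 1560 RPKM in WT and between 1250 and 12900 RPKM in Lpin1-/- (4.47 ± 0.44, adjusted p = 8.06e-05); the genotypes overlapped across feeding states and not within either. For both genes the difference was about 1 log2 unit larger in refed liver (4.96 for Mt1 and 5.04 for Mt2) than in fasted liver (3.90 and 3.89), and neither interaction was called. The zinc importer Slc39a14 had medians of 29.1 and 114 RPKM (2.11 ± 0.35, adjusted p = 0.00194), and the zinc exporter Slc30a1 had 10.3 and 20.1 RPKM (0.86). In all, 4 of 6 members of the list were higher and none was lower, against 5.74% and 12.2% of all tested genes.

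Mt2 and Mt1 lie next to each other on the plus strand of chromosome 8, and their 300-base promoters (RefSeq, GRCm38.p6; 250 bases before to 50 after the start) are shown because these neighbouring genes rose together. The metal response element was searched as TGCACNC or TGCGCNC on both strands, and matches are in capitals. Mt2 is at chr8:94172368-94172667 with 4 matches and Mt1 is at chr8:94178839-94179138 with 3 matches.
Mt2: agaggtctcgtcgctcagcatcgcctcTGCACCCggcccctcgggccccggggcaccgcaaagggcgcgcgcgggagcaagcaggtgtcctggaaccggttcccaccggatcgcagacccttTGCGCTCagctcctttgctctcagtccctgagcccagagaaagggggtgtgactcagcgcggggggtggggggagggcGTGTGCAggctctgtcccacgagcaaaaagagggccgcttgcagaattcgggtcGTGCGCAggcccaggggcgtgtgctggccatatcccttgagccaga
Mt1: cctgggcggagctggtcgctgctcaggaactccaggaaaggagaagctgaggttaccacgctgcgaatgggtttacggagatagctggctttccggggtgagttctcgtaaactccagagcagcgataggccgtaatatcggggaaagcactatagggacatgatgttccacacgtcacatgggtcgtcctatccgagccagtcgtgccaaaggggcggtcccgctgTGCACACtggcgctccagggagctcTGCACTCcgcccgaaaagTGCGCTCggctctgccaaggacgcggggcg
At least 1 match is held by 25.6% of the 27025 promoters of the table, at least 3 by 2% and at least 4 by 0.503%. Matches were commoner among the 8752 tested genes with a promoter, where 35.5% held at least 1, 292 genes at least 3 and 76 genes at least 4. A match is a string of letters and not a measured binding site.

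Genes known to answer to FoxO factors or to glucocorticoids were collected in a list chosen after values of these data were seen. Of its 24 members, 12 were higher and none lower, against 5.74% and 12.2% of all tested genes. Igfbp1, a secreted inhibitor of insulin-like growth factors that insulin represses, ran from 7.45 to 283 RPKM in WT and from 42.6 to 6960 RPKM in Lpin1-/- (4.08 ± 0.72, adjusted p = 0.0025), with 4.77 in fasted and 3.39 in refed liver. Cdkn1a, which encodes the cell cycle inhibitor p21, ran from 4.03 to 36.8 RPKM in WT and from 47.2 to 257 RPKM in Lpin1-/- (3.5 ± 0.56, adjusted p = 0.00157). Gadd45b and Gadd45g, growth arrest genes, had medians of 4.70 and 64.0 RPKM (3.42) and of 18.3 and 219 RPKM (3.33). Lepr, Trp53inp1 (3.16), Dusp1 (2.51), Per1, Pdk4, Tat, Sgk1 (1.47) and Ppargc1a made up the rest. Ccne1, cyclin E1, was the other cell cycle gene called higher (1.0) besides Cdkn1a among 15 tested, and none was lower.

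Among 18 targets of the integrated stress response, 5 were higher and 2 lower, against 5.74% and 12.2% of all tested genes. Ddit4, an inhibitor of mTORC1 that glucocorticoids also induce, had medians of 4.06 and 156 RPKM (3.87 ± 0.75, adjusted p = 0.00429), with 5.54 in fasted and 2.20 in refed liver. Cebpb (1.35), Slc3a2 (0.91) and Ppp1r15a (0.90) were higher, while Atf5 (-1.56) and Inhbe were lower. In the activin family, also listed after values were seen, Inhbc fell from a WT range of 29.9 to 103 RPKM to 5.20 to 21.8 RPKM (-2.25 ± 0.25, adjusted p = 0.000178). Inhbb was higher (1.06), at medians of 0.242 and 1.69 RPKM.

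Clock genes differed as well, with feeding state, and so the hour of collection, held in the fit. Of 19 tested, 5 were higher and 2 lower, against 5.74% and 12.2% of all tested genes. Ciart, a repressor in the clock loop, had medians of 1.2 and 15.2 RPKM (2.77 ± 0.52, adjusted p = 0.00353). Per1 had medians of 2.05 and 20.3 RPKM (2.23), Nfil3 of 16.5 and 74.4 RPKM (1.83) and Arntl, the BMAL1 gene, of 3.79 and 11 RPKM (1.35). Dbp, an output gene that BMAL1 activates, ran from 6.18 to 148 RPKM in WT and from 2.34 to 12.8 RPKM in Lpin1-/- (-2.25 ± 0.52, adjusted p = 0.0111). Per3 was called lower (-0.63), a call lost when any 1 of 7 libraries was left out (adjusted p up to 0.0758). Exact hours of collection per mouse were not used here.

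Among genes with a known sex bias in mouse liver, which the pattern of growth hormone release sets, 5 of 14 male-biased members were lower and none higher, while 5 of 8 female-biased members were higher and none lower. The shares of all tested genes were 12.2% lower and 5.74% higher. Hsd3b5, a steroid dehydrogenase of male liver, ran from 7.66 to 195 RPKM in WT and from 2.34 to 9.62 RPKM in Lpin1-/- (-3.10 ± 0.64, adjusted p = 0.00615). Selenbp2 (-0.97), Cyp7b1 (-0.95) and Cyp4a12a (-0.68) were lower, the last losing its call when libraries were rescaled and without any 1 of 3 libraries (adjusted p up to 0.0666). Among female-biased genes, Cyp2a4 had medians of 2.29 and 11.4 RPKM (2.19 ± 0.50, limma adjusted p = 0.0112). Its level depends on how reads that also match near-identical Cyp2a copies were counted. Cux2, a transcription factor of female liver, was called higher (1.37; lost without the WT fasted library 3 or the Lpin1-/- fasted library 3, adjusted p up to 0.0547), as was Cyp3a44 (0.83; lost without any 1 of 6 libraries, adjusted p up to 0.0638).

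In the growth hormone and IGF axis, 3 of 14 genes were higher and 3 lower, against 5.74% and 12.2% of all tested genes. Igfals, which carries IGF1 in serum, lay between 50.2 and 133 RPKM in WT and between 5.42 and 36.1 RPKM in Lpin1-/- (-2.18 ± 0.28, adjusted p = 0.000413). Socs2, a feedback inhibitor of growth hormone signalling, had medians of 2.51 and 8.30 RPKM (1.70), and Igfbp3 of 4.74 and 11.2 RPKM (1.17). Ghr, the receptor gene, was lower (-0.75), with a call that did not hold when libraries were rescaled, and so was Igfbp2 (-0.66), which also lost its call without the Lpin1-/- fasted library 3 or the Lpin1-/- refed library 1 (adjusted p up to 0.0524). Of the 3beta-hydroxysteroid dehydrogenases, a family listed after values were seen, all 4 tested members were lower: besides Hsd3b5, these were Hsd3b3 (-2.45), Hsd3b2 (-2.24) and Hsd3b1 (-0.88). The family members are similar in sequence, so their levels depend on how reads that match several of them were counted.

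Of 15 bile acid genes, 7 fell and 1 rose, against 12.2% and 5.74% of all tested genes, and 7 were not called. Their median was -0.752, and 5 were lower when libraries were rescaled. The list medians were -1.14 in fasted and -0.229 in refed liver. The bile salt export pump Abcb11 had medians of 52.1 and 28.4 RPKM (-1.08), the phospholipid flippase Abcb4 of 97.2 and 47.6 RPKM (-1.01) and Hsd3b7, an early enzyme of bile acid synthesis, of 261 and 135 RPKM (-1.06). None of these 3 had overlapping genotypes. Cyp27a1, of the alternative synthesis pathway, was higher (0.89). Of 31 drug-metabolizing P450s, 8 were higher and 5 lower, against 5.74% and 12.2% of all tested genes. Without both libraries that stood apart 9 were higher and 8 lower, while with rescaled libraries 9 were higher and 2 lower. Cyp2c70, which hydroxylates bile acids in mice, lay between 91.1 and 303 RPKM in WT and between 439 and 720 RPKM in Lpin1-/- (1.87 ± 0.23, adjusted p = 0.000334). Cyp3a59 (-1.06), Cyp2d26 (-1.05), Cyp2j5 (-0.73) and Cyp2f2 (-0.71) were lower, and Cyp3a13 was higher (0.86). Of these, Cyp2j5 lost its call when libraries were rescaled, and Cyp2f2 and Cyp3a13 when any 1 of 9 libraries was left out (adjusted p up to 0.0923 and 0.0783).

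Of 31 conjugation enzymes, 3 were higher and 7 lower, against 5.74% and 12.2% of all tested genes. Gstm4, a glutathione transferase, lay at 37.0 to 58.1 RPKM in WT and 9.51 to 15.3 RPKM in Lpin1-/- (-1.91 ± 0.15, adjusted p = 3.77e-05), and -1.85 in fasted and -1.98 in refed liver. The sulfotransferases moved in opposite directions: Sult2a8 (-1.89) and Sult5a1 (-1.83) fell, while Sult1d1 (2.25) and Sult1a1 (1.02) rose. Gstt3 rose (2.11) and Ugt2b35 fell (-1.32). Of 13 NRF2 targets, 5 were lower and none higher, among them Osgin1 (-1.26), the glutamate-cysteine ligase subunit Gclc (-1.15) and the glutathione reductase Gsr (-0.74). Ephx1 (-0.82) lost its call when any 1 of 9 libraries was left out (adjusted p up to 0.0823).

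Interferon-stimulated genes, a list chosen after values were seen, were called lower in 11 of 29 cases and higher in none, and 18 were not called. The shares of all tested genes were 12.2% lower and 5.74% higher. The median was -0.989. Isg15, a ubiquitin-like modifier, ran from 18.7 to 151 RPKM in WT and from 6.80 to 16.6 RPKM in Lpin1-/- (-2.52 ± 0.41, adjusted p = 0.00179). Iigp1, an immunity-related GTPase, lay between 63.6 and 131 RPKM in WT and between 4.95 and 26.4 RPKM in Lpin1-/- (-2.70 ± 0.37, adjusted p = 0.00064), with a difference of -3.55 in fasted and -1.84 in refed liver. Neither gene had overlapping genotypes. Igtp (-2.39) and Irgm2 (-1.83), of the same GTPase family, were also lower. Without both libraries that stood apart, 10 members were lower and the median was -0.661. Kupffer cell markers, which mark resident macrophages, were called in neither direction (0 of 10), and neither were the 6 lymphocyte markers tested. The part of these cells in the interferon result was not tested.

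Of 22 acute phase genes, 2 were called higher with all libraries, Steap4 (1.6 ± 0.31, adjusted p = 0.0046) and Serpina3n (1.42, lost without any 1 of 6 libraries, adjusted p up to 0.0596), and 7 were higher without both libraries that stood apart. Of 25 endoplasmic reticulum chaperone and unfolded protein response genes, 5 were lower and 1 higher. Over all tested genes 12.2% were lower and 5.74% higher, the background for both of these lists. Pdia4, a disulfide isomerase, had medians of 147 and 49.8 RPKM (-1.42 ± 0.18, adjusted p = 0.000454), Hyou1 of 43.2 and 29.3 RPKM (-0.97) and Calr, calreticulin, of 815 and 331 RPKM (-0.89, lost when libraries were rescaled). Herpud1, a degradation factor, rose from a median of 176 to 521 RPKM (1.55). Derl3 (-2.48) ran from 0.640 to 82.6 RPKM in WT and lost its call without any 1 of 6 libraries (adjusted p up to 0.0647).

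Of 36 SR and hnRNP proteins, which bind pre-mRNA and steer splice site choice, 2 were higher and 1 lower, against 18% called of all tested genes, with a median of -0.0371. When libraries were rescaled, and likewise with limma voom, 4 were higher and 1 lower. Hnrnpdl was higher in every Lpin1-/- library than in every WT library, 27.8 to 53.3 RPKM against 13.4 to 18.3 RPKM (1.19 ± 0.15, adjusted p = 0.000315). Hnrnpl had medians of 30.7 and 46.1 RPKM (0.52 ± 0.13, adjusted p = 0.0161), and Hnrnpa3 of 3.16 and 1.92 RPKM (-0.54, lost without the WT refed library 1 or the Lpin1-/- refed library 3, adjusted p up to 0.0582). None of the 17 U2 snRNP and branch site factors, which recognise the branch point, was called by limma with all 12 libraries; 3 had an unadjusted p under 0.05, 3 were called higher when libraries were rescaled and 1 with limma voom. Sf3b5 had a difference of 0.02 (95% interval -0.28 to 0.33) and Sf3b6 of 0.23 (95% interval -0.29 to 0.75).

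Few genes of the housekeeping groups were called, against 18% of all tested genes. None of 79 cytosolic ribosomal proteins was called by limma or limma voom (3 had an unadjusted p under 0.05), with differences of 0.22 for Rpl41 and 0.09 for Rps29. Their median was 0.184, against -0.108 over all tested genes, with 73 members above 0 and 6 below. By feeding state this median was 0.468 in fasted and -0.109 in refed liver, and no member had a called interaction. Without both libraries that stood apart the averaged median was 0.0484. Calls were made for 1 of 75 nuclear genes of the respiratory chain and ATP synthase (Cox6b2, -0.89, lost without any 1 of 8 libraries, adjusted p up to 0.0805), and for 1 of 38 proteasome subunits (Psmd9, 0.66). Among the respiratory chain genes 58 were above 0 and 17 below (median 0.145), and among the proteasome subunits 9 were above 0 and 29 below (median -0.164). Of the 2 fetal liver genes tested, Scd2 (0.10) and Cd24a (0.37), neither passed. Among genes zoned within the lobule, 3 of 10 periportal genes were higher and 2 lower (Pigr -1.14, lost without the Lpin1-/- fasted library 3 or the Lpin1-/- refed library 3, adjusted p up to 0.0538; Cyp2f2 as above), and 2 of 11 pericentral genes were lower. Gulo, the last enzyme of vitamin C synthesis, had medians of 202 and 88.6 RPKM without overlap (-1.11 ± 0.14, adjusted p = 0.000429), and Lgr5, a Wnt pathway receptor of pericentral hepatocytes, had 0.864 and 0.205 RPKM (-0.61).

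Few markers of other liver cells were called, against 18% of all tested genes. Of 7 endothelial markers, Lyve1, a hyaluronan receptor of sinusoidal cells, was higher, at 4.19 to 9.67 RPKM in Lpin1-/- against 0.153 to 2.73 RPKM in WT (1.71 ± 0.31, adjusted p = 0.00309), while the summed endothelial markers ran from 20.8 to 57.6 RPKM in WT and from 36.7 to 64.0 RPKM in Lpin1-/-. Of 12 stellate cell and fibroblast markers, Hand2 was called higher (0.68, lost without any 1 of 10 libraries, adjusted p up to 0.0895). The sum of the 12 ran from 73.6 to 247 RPKM in WT and from 171 to 340 RPKM in Lpin1-/-. In fasted liver this sum did not overlap, at 73.6 to 173 RPKM in WT and 224 to 340 RPKM in Lpin1-/-. In refed liver it did, at 83.4 to 247 and 171 to 215 RPKM. Dcn, the marker with the highest mean level, was not called, at 59.8 to 155 RPKM in WT and 148 to 264 RPKM in Lpin1-/-. No call was made among 4 hepatocyte, 10 Kupffer, 7 monocyte, 6 lymphocyte, 4 neutrophil, 6 cholangiocyte or 6 erythroid markers tested, and among them 1 hepatocyte and 1 erythroid marker had an unadjusted p under 0.05 in limma. Summed neutrophil markers ran from 4.28 to 128 RPKM in WT and from 22.9 to 171 RPKM in Lpin1-/-. The part of these cells in the results above was not tested.

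**Figure D5:**
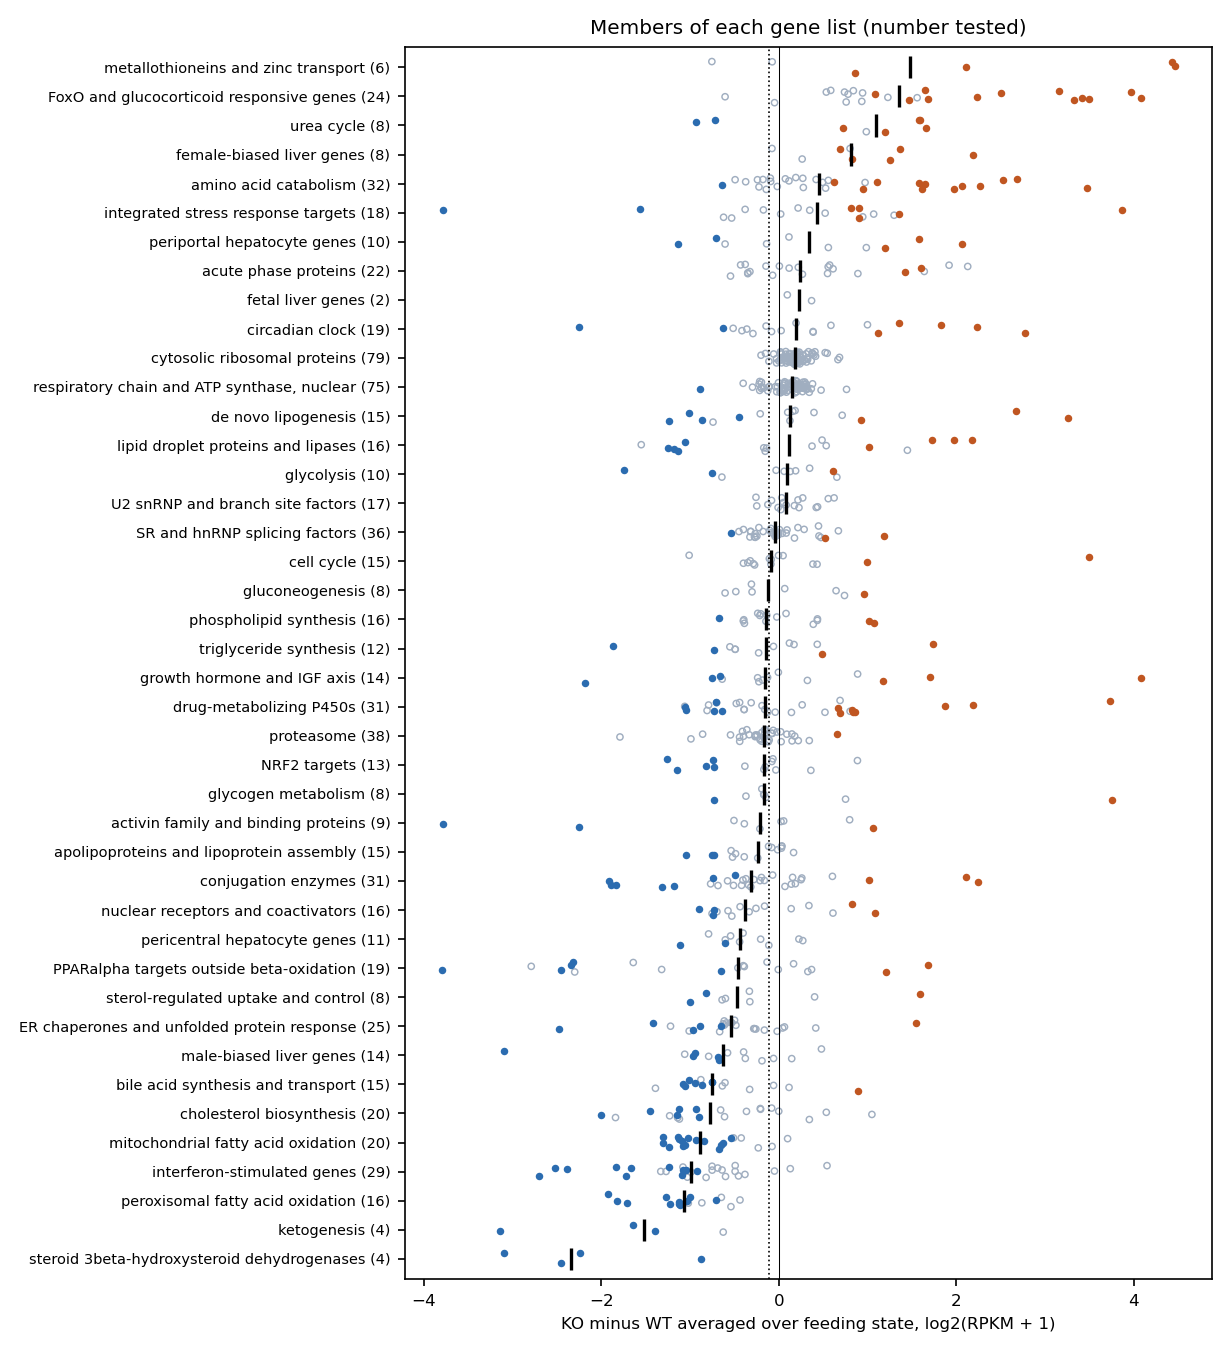
Each point is a gene of a list, placed by its difference between Lpin1-/- and WT averaged over feeding state in log2(RPKM + 1) (filled blue called lower, filled orange called higher, open not called); thick bars are list medians and the dotted line is the median of all genes, -0.108. Lists run from the steroid dehydrogenases at the bottom (median -2.34) to the metallothionein and zinc list at the top (median 1.49).

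Promoter letters were compared for 8752 of the 11507 tested genes that matched a promoter by symbol. The E-box CACGTG was held by 10.3% of tested promoters, 10.3% of those of genes called higher and 9.93% of those of genes called lower. The sterol response element TCACNCCAC was held by 1.1%, 1.36% and 1.43% in the same order, and the amino acid response element TGATGNAAN by 2.17%, 3.31% and 2.24%. The metal response element was held by 35.5%, 32.1% and 34.5%. These shares are descriptions of 300-base windows and say nothing of binding.

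Of 19 tested genes within 5 Mb on either side, 1 was called (5.26%, against 18% of all tested genes), which was Nbas, lower by -0.94 (adjusted p = 0.00301).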

How the data were processed

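RNA of 12 mouse livers was sequenced as paired-end reads. Per the labels and the study's methods, the reads were aligned with HISAT2 2.0.5 to GRCm38 and counted with HTSeq 0.6.0, and the submitters' processing notes also name DESeq2 1.20.0. The authors deposited 1 RPKM value per gene and library, which is scaled by gene length and library total and carries no correction for composition. All 12 columns matched a sample by name. Tables of exon-level comparisons and columns of the authors' own fold changes were not used.

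Genes whose mean over the 12 libraries reached 0.5 RPKM were tested with limma 3.58.1 (R 4.3.3, trended prior) on log2(RPKM + 1), with feeding state and genotype as additive terms. The interaction came from a fit of the 4 groups. P-values (2-sided) were adjusted by the Benjamini-Hochberg method over all tested genes and called under 0.05. Log2 differences on this scale understate the change of genes near 1 RPKM. The fit was tested on simulated data. Whole reads were recovered from the steps of the low RPKM values for 97.3% of 4484 low genes, which gave the depths. For the voom alternative, whole reads of all 11507 tested genes were then recovered (tolerance 0.001). Each gene took the smallest length that gave whole reads in every library. Replicates were separate libraries, and p-values measure the spread between them.

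Named genes were the 3 lipins, 15 genes higher and 15 lower, taken by size of difference among called genes with no overlap in either feeding state, and the 4 largest called members of each list in each direction, or the 2 members of highest level where none was called. Other genes named were chosen after their values were seen. The members and lists were chosen with earlier results of these data known, and the interferon, FoxO and glucocorticoid, 3beta-hydroxysteroid dehydrogenase and activin lists after seeing the values here. Gene coordinates were from GENCODE M21 and promoters from RefSeq. Tables and figures were made with Python 3.11.15, pandas 2.3.3, numpy 2.4.6 and matplotlib 3.10.9. Some genes of the lists are counted but not reported here.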

Additional observations from a re-analysis of the deposited data

Results flagged for a closer look

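Among the named genes called in the average, 5 had a genotype difference that itself differed between fasted and refed liver (interaction, limma adjusted p under 0.05; the difference is refed minus fasted on the log2 scale).

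Mvd, a mevalonate pathway enzyme, had an interaction of -2.28 (adjusted p = 0.019), with a genotype difference of -0.00723 in fasted and -2.28 in refed liver. Fdft1, squalene synthase, had an interaction of -1.88 (adjusted p = 0.0325), with -0.177 and -2.06 in the same order. Nrep had an interaction of -1.78 (adjusted p = 0.0336), and was lower in both states, by -1.48 and -3.25. A gene model known only by its clone name had an interaction of 1.81 (adjusted p = 0.0338), and its difference was -3.33 in fasted and -1.52 in refed liver. Ppp1r3g had an interaction of -3.07 (adjusted p = 0.0372), and its difference was 5.30 in fasted and 2.23 in refed liver.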

How the results depend on the processing

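The count of 2070 called genes stayed within 1.5 times under a pseudocount of 0.1 (2100), no filter (1873), a minimum of 5 RPKM (1530), rescaled libraries (1923), the average of the 2 within-state contrasts (2507) and voom on recovered reads (1935), but was 3331 with array weights. Leaving out each library gave 1311 to 2224. In each alternative, all calls shared with the 12-library fit had the same sign. These fits reuse all or most of the same libraries, so this agreement of sign is no separate support. The interaction count of 147 was 83 with no filter, 321 with rescaled libraries, 81 with the replicate block and 2539 with array weights, and 30 to 191 when each library was left out. Lpin1 kept its direction throughout, from -1.331 to -2.161 with a library left out, and with no filter its limma adjusted p was 0.051 at -1.87. Its difference was -4.275 with a pseudocount of 0.1 and -6.382 with voom. Leaving out both libraries with high macrophage marker sums, chosen after seeing the data, gave 2024 averaged calls and 52 interactions. The causes of these changes were not tested.

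Besides Lpin1, 165 named genes were called, of which 124 kept the call in all 17 alternatives and 41 lost it in at least 1. Without both libraries that stood apart, counts of called list members that moved by over 1.5 times and are not given above were 1 nuclear receptor higher, 1 sterol control gene lower, 1 cholesterol gene higher, 2 phospholipid genes lower, 0 glycolysis genes higher and 1 lower, 2 amino acid genes lower, 1 clock gene lower, 2 activin genes higher, 1 U2 factor higher, 1 proteasome subunit lower and 1 erythroid marker lower. With rescaled libraries, 3 male-biased genes, 3 endoplasmic reticulum genes, 3 NRF2 targets, 1 growth hormone axis gene and 1 periportal gene were lower, and 2 activin genes, 2 endothelial and 2 stellate markers were higher. Small differences that did not pass changed sign: Lpin3 was 0.02783 when rescaled, Sf3b5 was -0.0001766 without both libraries, and single libraries left out gave -0.07172 to 0.1046 for Sf3b5, -0.04001 to 0.34 for Scd2, -0.06519 to 0.406 for Rpl41 and -0.03283 to 0.1859 for Rps29.

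Libraries of the same number had deviations with correlations of -0.474 to -0.226 in fasted and 0.162 to 0.297 in refed liver. As not every pair was above 0.1, the numbers were not taken as pairs. With the replicate block, 1702 genes were called in the average, and 15 of the named calls were lost.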

Other observations

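Cela2a, a pancreatic elastase gene, had a mean under 0.5 RPKM and was not tested, but lay between 0.117 and 1.56 RPKM in the 6 Lpin1-/- libraries and between 0 and 0.0415 RPKM in the 6 WT libraries. The other 4 pancreas acinar markers were at most 0.0836 RPKM in any library, and Amy2a5 was listed at 0 in all. Summed cholangiocyte markers reached 453 RPKM in the Lpin1-/- fasted library 1, where Spp1 alone was 430 RPKM, and ran from 25.7 to 60.1 RPKM in the other Lpin1-/- libraries and from 35.6 to 108 RPKM in WT, with no marker called. Summed erythroid markers ran from 236 to 1940 RPKM in Lpin1-/- and from 501 to 866 RPKM in WT, with no marker called with all 12 libraries.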
